A study of Homo sapiens with 6 samples.

Results

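The comparison set late against early induction in J82 cells, an established human bladder cancer line, that carry a doxycycline-inducible ZFP36L1 construct. It was chosen by sample title and used 2 of the 6 libraries of the series, tet-ZFP36L1 at 24 h and tet-ZFP36L1 at 6 h of doxycycline. The tet-control line at 24 h and at 6 h gave 2 further libraries as background. All 4 cultures had received doxycycline at 1 µg/mL. Cultures at 24 h were also older than those at 6 h, in both lines, so time in culture and time in the drug cannot be told apart within a line; protein was not measured. The labels do not say whether either line is 1 clone. Each group was 1 library of total RNA, without replicates. No p-value can therefore be given, and the intervals below are 95% intervals of counting error only, which leave out the variation between cultures and treat reads as independent molecules. The 2 libraries without doxycycline were left out, so a difference that the lines had before induction cannot be told apart from an early response.

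The ZFP36 proteins, among them ZFP36L1, are zinc finger proteins that attach to AU-rich stretches of mRNA 3' ends and bring in the enzymes that shorten the poly(A) tail. The mRNA is then degraded, and messages for cytokines, growth factors and cell cycle regulators are known targets. Interferon-stimulated genes are switched on by STAT and IRF transcription factors and encode antiviral proteins. Mitosis genes are transcribed mainly in late S phase and G2, and fall when cells leave the cycle or stop before mitosis.

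The total of estimated counts lay between 20739025 and 21316151 in the 4 libraries. Transcript counts were summed per gene, and 11920 genes with a mean of at least 50 counts were measured. Levels are CPM, gene counts divided by TMM-scaled library size, and changes are differences of log2(CPM + 0.5), which understate the change of genes with low counts. Of the mesenchymal markers of the line, 9 of 10 were measured. All 10 together summed to 4501 CPM in tet-ZFP36L1 at 24 h and 14461 CPM in tet-ZFP36L1 at 6 h. In tet-control the sum was 1783 CPM at 24 h and 2124 CPM at 6 h. Of the 22 epithelial and urothelial markers 7 were measured, and 4 were at 0 in all 4 libraries, among them the uroplakins UPK2 and UPK3A. All 22 together summed to 1296 and 1638 CPM in tet-ZFP36L1 and 709.6 and 879 CPM in tet-control, in the same order. Of the 12 leukocyte markers only CD68 was measured, which shares sequence with another gene, and the 6 endothelial markers matched of 7 listed summed to at most 1.35 CPM.

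ZFP36L1 mRNA was at the same high level at both times. It stood at 3132 CPM in tet-ZFP36L1 at 24 h and 3123 CPM in tet-ZFP36L1 at 6 h, against 206 CPM in tet-control at 24 h and 223 CPM in tet-control at 6 h. The ratio of 24 h to 6 h in tet-ZFP36L1 was 1.00 (0.99 to 1.01). Most of the induced counts fell on the annotated form whose 3' UTR has 211 bases, with 38256.1 and 33789.8 estimated counts at 24 h and 6 h in tet-ZFP36L1 and 20.8 and 22.9 in tet-control. The form whose 3' UTR has 2828 bases had 70.2 and 187.7 estimated counts in tet-ZFP36L1 and 440.5 and 755.4 in tet-control at the same times. The form with 1871 bases, which held most of the tet-control counts, went the other way. It had 8269.8 and 9909.6 in tet-ZFP36L1 and 3468.2 and 3284.1 in tet-control. The other family members stayed low: ZFP36L2 was at 15.8 and 12.7 CPM in tet-ZFP36L1 and at 36.6 and 44.6 CPM in tet-control, and ZFP36 at 6.63 and 9.27 CPM against 10.7 and 9.30 CPM.

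A gene was counted as higher or lower at 24 h when its own change in tet-ZFP36L1 and the difference of that change from the one in tet-control were both at least 2-fold in the same direction. By this rule 257 genes were higher at 24 h, 2.16% of all measured genes, and 73 were lower, 0.612%. With the lines exchanged, tet-control had 35 higher genes (0.294%) and 109 lower genes (0.914%). The median change of all genes was -0.05 in tet-ZFP36L1 and 0.01 in tet-control. The excess of higher genes depended on expression level and on scaling. Of the 257 higher genes, 176 lay among the 2384 genes (1 of 5 equal groups) with the lowest expression and 1 among the 2384 with the highest, while 18 of the 73 lower genes lay among those with the highest expression. The median difference between the lines' changes was 0.26 in the group with the lowest expression and -0.19 in the group with the highest. Plain CPM gave 389 higher and 41 lower genes, the deposited TPM 353 and 49, and removing the trend with expression 179 and 82. Plain CPM and TPM moved the median difference of all genes to 0.12 in both cases, against -0.02 with TMM. The library of tet-ZFP36L1 at 24 h had the largest TMM factor, 1.11 against 0.94 to 0.98 in the other 3. In it 15695 genes reached 10 counts, and in the others 14618 to 14956 did.

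**Figure D1:**
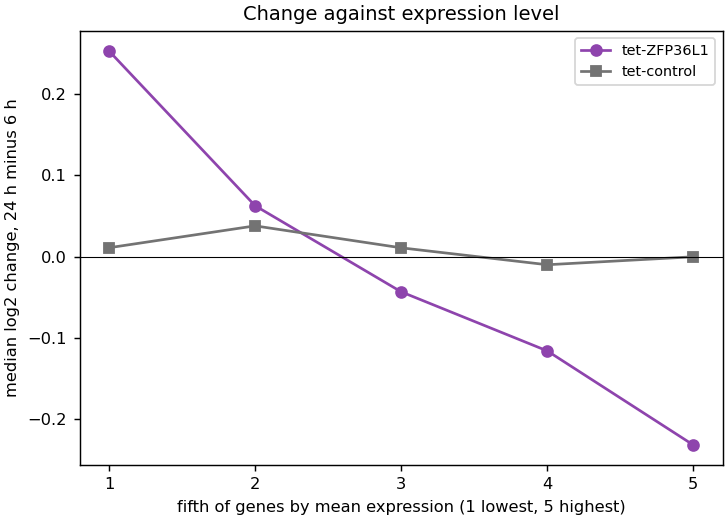
Median log2 change from 6 h to 24 h (vertical axis) of 2384 genes in each of 5 groups by mean expression (horizontal axis), in tet-ZFP36L1 (purple circles) and tet-control (grey squares). In tet-ZFP36L1 the median falls with expression, 0.25 in the lowest group and -0.23 in the highest, while in tet-control it stays between -0.01 and 0.04.

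**Figure D2:**
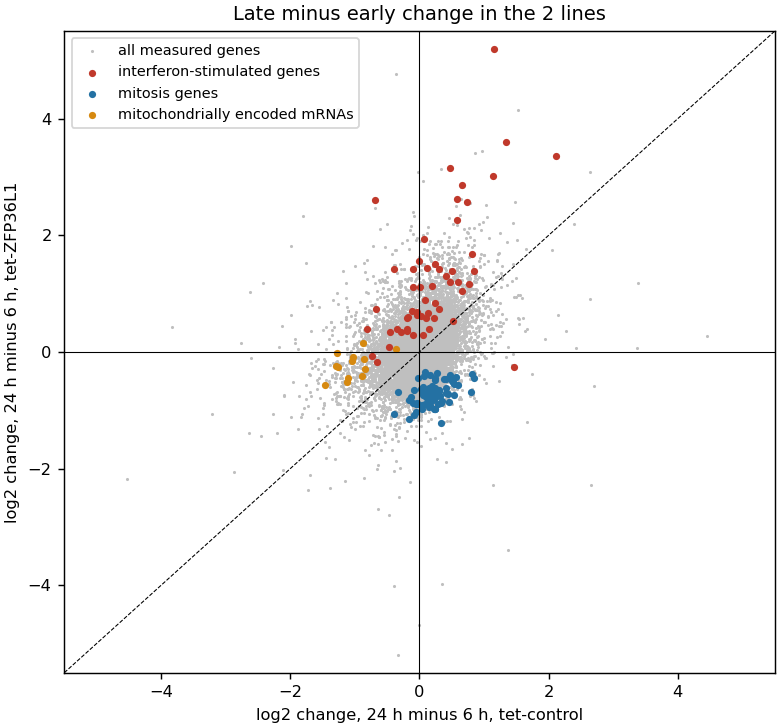
Log2 change from 6 h to 24 h in tet-ZFP36L1 (vertical axis) against the same change in tet-control (horizontal axis) for 11920 genes, with the dashed line marking equal change. Interferon-stimulated genes (red) lie above the line apart from TRIM21, mitosis genes (blue) lie below it, and mitochondrially encoded mRNAs (orange) lie left of the vertical zero line.

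Interferon-stimulated genes were the list with the most members higher at 24 h. Of 55 measured members, 33 were at least 1.5-fold higher by the same double rule and 0 were lower, against 6.78% and 4.27% of all measured genes. At 2-fold, 19 members were higher (all genes 2.16%). In tet-control, with the lines exchanged, 1 member was higher and 4 were lower, where the shares of all genes were 1.51% and 3.62%. The median change of the members was 1.04 in tet-ZFP36L1 and 0.11 in tet-control. At 24 h the members had a median 1.35 above tet-control, and at 6 h 0.48 above it. The own change was positive in 52 of the 55 members, and in 51 to 54 of them over the other scalings. Because 1 member had a library at 0, the median of the difference, 0.80, was also computed with that library at 3 counts, and was again 0.80.

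The antiviral effectors changed most. OASL, an oligoadenylate synthetase-like protein that enhances RNA sensing (chromosome 12, 121019111 to 121039242, GRCh38), stood at 59.6 CPM in tet-ZFP36L1 at 24 h and 1.14 CPM in tet-ZFP36L1 at 6 h, a ratio of 52.3 (34.4 to 83.7). It was at 0.61 CPM in tet-control at 24 h and had 0 counts in tet-control at 6 h, so no difference of changes is given for it. MX1, a dynamin-like GTPase that blocks viral replication (chromosome 21, 41420304 to 41459214), was at 68.0 CPM and 7.15 CPM in tet-ZFP36L1 and at 7.30 CPM and 5.13 CPM in tet-control. Its level in tet-ZFP36L1 at 24 h stood far above the other 3 libraries, and its difference was 2.69 (2.25 to 3.14). MX2, a related GTPase of the nuclear envelope, was at 9.15 and 1.09 CPM in tet-ZFP36L1 and at 0.81 and 1.60 CPM in tet-control, a difference of 3.29 (2.21 to 4.36). IFIT2, which binds viral RNA, was at 47.6 and 3.47 CPM in tet-ZFP36L1 and at 4.31 and 1.39 CPM in tet-control, a difference of 2.25 (1.53 to 2.98). For these genes tet-ZFP36L1 at 24 h was the high library, and the other 3 were low. Within tet-control OASL and IFIT2 were also at least 2-fold higher at 24 h, at these low levels.

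Several of these genes also had higher levels at 24 h in tet-control. The following members were chosen after their values were seen. IFIT1, also an RNA-binding effector, was at 68.2 and 6.16 CPM in tet-ZFP36L1 and at 8.36 and 1.55 CPM in tet-control, so that the own changes were 3.37 and 2.11 and the difference 1.26 (0.63 to 1.88). ISG15, a ubiquitin-like modifier, was at 60.0 and 12.2 CPM in tet-ZFP36L1 and at 9.68 and 6.31 CPM in tet-control, a difference of 1.68 (1.29 to 2.06). Both were higher in tet-ZFP36L1 than in tet-control at each time. OAS2, which makes the 2-5A second messenger of RNase L, was at 34.3 and 5.13 CPM in tet-ZFP36L1 and at 1.52 and 0.86 CPM in tet-control. Members with high levels changed less. ADAR, the RNA-editing deaminase, was at 596 and 454 CPM in tet-ZFP36L1 and at 367 and 420.2 CPM in tet-control, a difference of 0.59 (0.53 to 0.65). OAS3 was at 188 and 125 CPM in tet-ZFP36L1 and at 174 and 161 CPM in tet-control, so its 24 h level was not far from that of tet-control, with a difference of 0.48 (0.38 to 0.58). TRIM21, an antibody receptor of the cytosol with ubiquitin ligase activity, was the 1 member with a negative difference. It stood at 34.7 and 41.4 CPM in tet-ZFP36L1 and at 32.2 and 11.4 CPM in tet-control, and its difference of -1.71 (-1.97 to -1.44) came from a low value in tet-control at 6 h.

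Of the 70 interferon-stimulated genes listed, 15 fell below the count minimum and entered none of these counts. Some of them had counts almost only in tet-ZFP36L1 at 24 h, and they too were chosen after their values were seen. RSAD2, the antiviral enzyme viperin, had 105 counts in tet-ZFP36L1 at 24 h and 0 in tet-ZFP36L1 at 6 h, against 3 and 3 in tet-control. The chemokine CXCL10 had 40 counts in tet-ZFP36L1 at 24 h and 0 in the other 3 libraries, and CXCL11 had 56 counts there and 0, 0 and 1 in tet-ZFP36L1 at 6 h, tet-control at 24 h and tet-control at 6 h. EPSTI1 had 170 and 17 counts in tet-ZFP36L1 and 3 and 3 in tet-control. Others stayed at or near 0 in every library, such as IFI27, with 0 counts throughout. CXCL10 and CXCL11 draw T cells and are themselves interferon-induced.

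**Figure D3:**
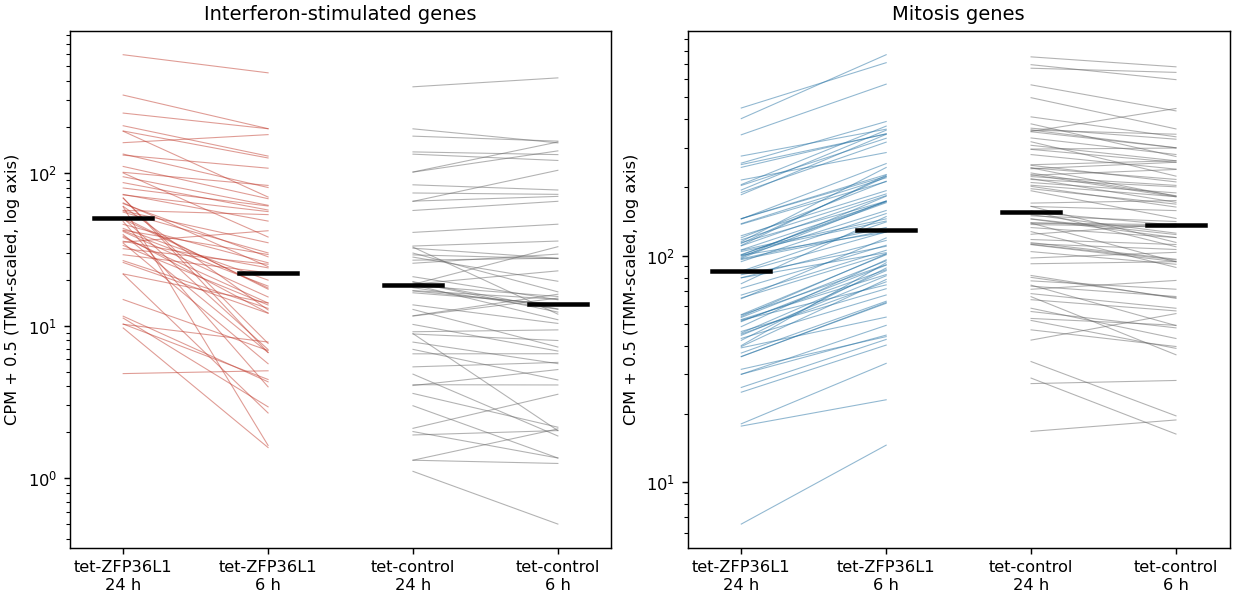
Level of each measured interferon-stimulated gene (left) and mitosis gene (right) as CPM + 0.5 on a log axis, with lines joining the 2 libraries of a line (coloured for tet-ZFP36L1, grey for tet-control) and black bars at the median of the members. Most interferon-stimulated genes are higher in tet-ZFP36L1 at 24 h than at 6 h, and every mitosis gene is lower, while the tet-control lines change less in the median.

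Interferon signalling genes followed in part. Of 25 measured members, 10 were at least 1.5-fold higher and 0 were lower (all genes 6.78% and 4.27%), with a median change of 0.49 in tet-ZFP36L1 and -0.07 in tet-control. Some interferon genes themselves gave next to no counts. IFNB1, IFNK, IFNL1, IFNL2 and IFNL3 had 0 counts in all 4 libraries, which allows up to 3 counts in each. IFNE had 3 and 6 counts in tet-ZFP36L1 and 3 and 6 in tet-control. Further interferon genes are not described here, so absence of interferon mRNA as a whole is not shown. The sensors of double-stranded RNA were higher at 24 h. IFIH1 (MDA5) was at 40.9 and 14.9 CPM in tet-ZFP36L1 and at 16.4 and 13.2 CPM in tet-control, a difference of 1.12 (0.81 to 1.43). TLR3, the endosomal sensor, was at 12.6 and 3.99 CPM in tet-ZFP36L1 and at 5.68 and 3.53 CPM in tet-control, a difference of 0.93 (0.36 to 1.5). Both sensors were highest in tet-ZFP36L1 at 24 h and lowest in tet-control at 6 h.

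Among the transcription factors, IRF1 was at 57.6 and 31.5 CPM in tet-ZFP36L1 and at 25.6 and 29.3 CPM in tet-control, a difference of 1.05 (0.83 to 1.27). STAT2, a subunit of the ISGF3 activator, was at 110.0 and 67.4 CPM in tet-ZFP36L1 and at 32.7 and 35.3 CPM in tet-control, a difference of 0.81 (0.63 to 1.00). The kinases moved little: TYK2 was at 192 and 175 CPM in tet-ZFP36L1 and at 144 and 167 CPM in tet-control. JAK1 was nearly level in tet-ZFP36L1, at 320.4 and 306 CPM, and its difference of 0.74 (0.67 to 0.81) came from tet-control, at 301 and 480.0 CPM.

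Antigen presentation by MHC class I, which interferons also raise, gave a mixed picture. Of 22 measured members 4 were higher and 3 were lower, where the shares of all genes were 6.78% and 4.27%. TAP1, the peptide transporter, was at 25.9 and 13.3 CPM in tet-ZFP36L1 and at 14.8 and 18.8 CPM in tet-control, a difference of 1.27 (0.96 to 1.58). The immunoproteasome subunit PSMB9 was at 18.8 and 6.58 CPM in tet-ZFP36L1 and at 4.31 and 3.15 CPM in tet-control, a difference of 1.05 (0.49 to 1.61). B2M, the light chain of class I molecules, was level at 824 and 811 CPM in tet-ZFP36L1 and at 565 and 549.5 CPM in tet-control. The lower members were the chaperones CALR, CANX and PDIA3, which also belong to the endoplasmic reticulum list, and PDIA3 shares most of its sequence words with another gene.

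Promoters of the interferon-stimulated genes were searched for the core of the interferon response element, GAAANNGAAA on either strand, in windows from 250 bases before to 50 bases after each RefSeq start site (GRCh38.p14). Of 40 measured members with a window, 27 held it (67.5%), and of 23 such members that were at least 1.5-fold higher, 14 did (60.9%). Among all measured genes with a window the share was 3.74%, and over all windows 3.57%. Of the genes counted as 2-fold higher, 187 had a window and 21 of these held the element (11.2%). A match is a run of letters and not a shown binding site, a gene can have several windows, and the letters were searched with overlaps allowed. The windows of 3 effector genes whose levels are given above are shown for the place of the match, which is in capitals; in a minus-strand match the capitals read TTTCNNTTTC.
ISG15 (chr1:1013247-1013546, plus strand): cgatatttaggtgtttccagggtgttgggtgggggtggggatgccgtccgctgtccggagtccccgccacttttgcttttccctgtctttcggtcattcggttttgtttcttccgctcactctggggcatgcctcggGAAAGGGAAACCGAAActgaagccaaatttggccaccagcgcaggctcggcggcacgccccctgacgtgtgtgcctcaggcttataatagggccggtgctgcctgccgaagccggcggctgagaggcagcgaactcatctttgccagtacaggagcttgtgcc
IFIT1 (chr10:89392373-89392672, plus strand): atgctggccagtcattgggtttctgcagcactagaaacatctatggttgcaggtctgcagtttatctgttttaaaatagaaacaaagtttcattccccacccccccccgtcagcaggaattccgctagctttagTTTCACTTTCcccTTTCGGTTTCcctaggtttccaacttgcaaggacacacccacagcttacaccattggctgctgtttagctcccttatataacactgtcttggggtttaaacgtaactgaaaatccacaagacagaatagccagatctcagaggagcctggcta
MX1 (chr21:41420308-41420607, plus strand): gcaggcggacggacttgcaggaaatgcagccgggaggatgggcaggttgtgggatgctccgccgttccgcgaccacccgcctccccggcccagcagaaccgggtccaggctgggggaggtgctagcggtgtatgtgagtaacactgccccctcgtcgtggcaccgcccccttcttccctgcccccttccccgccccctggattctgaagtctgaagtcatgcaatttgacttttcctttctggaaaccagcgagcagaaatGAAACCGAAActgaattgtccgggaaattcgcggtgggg
In the ISG15 window 2 matches overlap, the first beginning 113 bases before the start site, and in the MX1 window the match begins 11 bases after it.

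Mitosis genes were lower at 24 h as a group. The double rule at 1.5-fold counted 58 of the 77 members as lower and 0 as higher, against 4.27% and 6.78% of all measured genes. At 2-fold, 2 members were lower (all genes 0.612%). The median change was -0.71 in tet-ZFP36L1 and 0.21 in tet-control. All 77 own changes in tet-ZFP36L1 were negative, under TMM and under each of the 4 other scalings, against 55.1% of all measured genes. In bulk RNA, fewer cells in a phase and less mRNA per cell cannot be told apart. The number of members counted depended on the scaling. It was 26 with plain CPM, where 1.96% of all genes were lower, 36 with TPM (2.74%) and 28 with the expression trend removed (3.57%). At 6 h the members were level with tet-control, with a median of 0.04, and at 24 h they stood at -0.87. At 24 h 27 of them were at least 2-fold below tet-control (all genes 8.27%). With the lines exchanged, tet-control had 4 higher members and 0 lower (all genes 1.51% and 3.62%).

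Cyclins and kinases of mitotic entry were among them. CCNB1, cyclin B1 (chromosome 5, 69167010 to 69178245), was at 206 CPM in tet-ZFP36L1 at 24 h and 373 CPM in tet-ZFP36L1 at 6 h, against 498 CPM in tet-control at 24 h and 362 CPM in tet-control at 6 h. The lines were level at 6 h and parted in opposite directions, with a difference of -1.32 (-1.38 to -1.25). CDC25C, the phosphatase that activates CDK1, was at 24.5 and 39.8 CPM in tet-ZFP36L1 and at 33.6 and 19.1 CPM in tet-control, a difference of -1.49 (-1.73 to -1.24). CDK1 itself, chosen after its values were seen as were the next 2, was at 51.0 and 86.3 CPM in tet-ZFP36L1 and at 133 and 119.8 CPM in tet-control. PLK1, the polo-like kinase, was at 54.4 and 100.4 CPM in tet-ZFP36L1 and at 231 and 183 CPM in tet-control. It was lower in tet-ZFP36L1 at 6 h already. FOXM1, the transcription factor of the G2 programme, was at 189.6 and 317 CPM in tet-ZFP36L1 and at 358 and 299 CPM in tet-control.

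Spindle and chromosome proteins followed. TPX2, which nucleates spindle microtubules, was at 402 and 770.4 CPM in tet-ZFP36L1 and at 754 and 681 CPM in tet-control, a difference of -1.08 (-1.13 to -1.03). TOP2A, the topoisomerase that untangles sister chromatids, was at 448 and 710.4 CPM in tet-ZFP36L1 and at 696 and 598 CPM in tet-control, a difference of -0.88 (-0.94 to -0.83). In both the 3 other libraries were close to each other and tet-ZFP36L1 at 24 h was low. SGO2, a shugoshin that protects centromeric cohesion, was at 39.6 and 92.6 CPM in tet-ZFP36L1 and at 81.3 and 64.3 CPM in tet-control and reached 2-fold, with a difference of -1.55 (-1.71 to -1.39). The nuclear import factor KPNA2 was at 341 and 571 CPM in tet-ZFP36L1 and at 672 and 644 CPM in tet-control.

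DNA replication genes moved less. The rule counted 1 of the 62 measured members as lower and 0 as higher (all genes 4.27% and 6.78%). The median change was -0.14 in tet-ZFP36L1 and 0.26 in tet-control, and the first of these turned to 0.05 with plain CPM and 0.02 with TPM. The difference of changes was negative in 56 of the 62 (all genes 51.75%), with a median of -0.36. With plain CPM, TPM and the expression trend removed, 79.03% to 80.65% of members were negative (all genes 39.07% to 46.85%). PCNA, the polymerase clamp, was level in tet-ZFP36L1, at 341 and 343 CPM, and at 471 and 328 CPM in tet-control. MCM4, of the replicative helicase, was at 319 and 313 CPM in tet-ZFP36L1 and at 455 and 368 CPM in tet-control. RRM2, the ribonucleotide reductase subunit, was the 1 counted member, at 300.3 and 469 CPM in tet-ZFP36L1 and at 618 and 526 CPM in tet-control, a difference of -0.88 (-0.94 to -0.82). Genes of cell cycle arrest and p53 targets showed no common direction, with 3 of 32 measured members higher and 2 lower, near the shares of all genes (6.78% and 4.27%). BBC3, the apoptosis inducer PUMA, was at 11.8 and 4.82 CPM in tet-ZFP36L1 and at 3.60 and 3.42 CPM in tet-control. Of the D-type cyclins, CDKs and related factors 2 of 18 were higher (all genes 6.78%), both MYC antagonists. MXD4 was at 80.6 and 25.7 CPM in tet-ZFP36L1 and at 27.5 and 16 CPM in tet-control, a difference of 0.87 (0.62 to 1.12). CCND1, cyclin D1 and a known ZFP36-family target, was at 221 and 309.6 CPM in tet-ZFP36L1 and at 662 and 613 CPM in tet-control, low at both times.

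The cell cycle homology region, TTTGAA on either strand, is bound by the DREAM and MuvB complexes in promoters of mitosis genes. It was found in 46 of 67 mitosis members with a window (68.7%), in 34 of 51 of the lower ones (66.7%), in 3 of 50 DNA replication members (6.00%) and in 13.3% of all measured genes. The CCAAT box was found in 53 of the 67 mitosis members (79.1%), against 43.8% of all measured genes. E2F sites, searched as TTTGGCGC or TTTCGCGC, were found in 18 of the 50 replication members (36.0%), in 2 of the 67 mitosis members and in 2.57% of all measured genes. These shares describe the lists, and the lists were not chosen by promoter. The windows of 2 members described above show the region in capitals, where TTCAAA is the match on the minus strand.
TOP2A (chr17:40417847-40418146, minus strand): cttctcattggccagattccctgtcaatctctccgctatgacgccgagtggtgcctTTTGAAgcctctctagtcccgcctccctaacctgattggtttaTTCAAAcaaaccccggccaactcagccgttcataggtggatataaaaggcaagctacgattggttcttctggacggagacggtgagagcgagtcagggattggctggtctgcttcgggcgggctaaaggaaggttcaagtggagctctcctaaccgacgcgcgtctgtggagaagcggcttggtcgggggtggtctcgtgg
CDC25C (chr5:138331755-138332054, minus strand): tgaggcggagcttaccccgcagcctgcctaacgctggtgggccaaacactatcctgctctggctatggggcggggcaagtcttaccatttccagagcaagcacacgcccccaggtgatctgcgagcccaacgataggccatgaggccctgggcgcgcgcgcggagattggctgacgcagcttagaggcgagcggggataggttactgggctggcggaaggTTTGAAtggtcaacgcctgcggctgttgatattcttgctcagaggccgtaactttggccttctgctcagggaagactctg

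**Figure D4:**
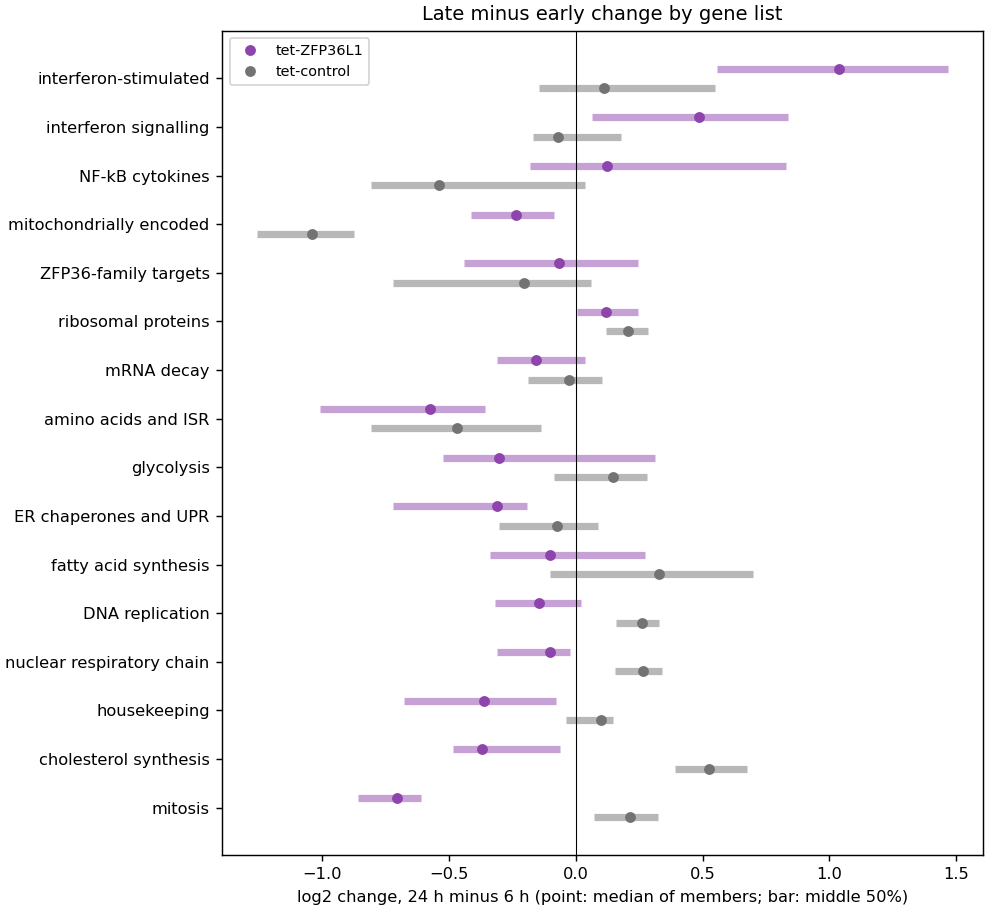
Log2 change from 6 h to 24 h (horizontal axis) of the measured members of 16 gene lists, with points at the median and bars over the middle 50% of members, for tet-ZFP36L1 (purple, upper) and tet-control (grey, lower). Interferon-stimulated genes have the highest median in tet-ZFP36L1, 1.04, and mitosis genes the lowest, -0.71, while in tet-control the mitochondrially encoded mRNAs are lowest at -1.04.

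Glycolysis was the first metabolic list. The rule counted 5 of its 30 measured members as lower and 1, the enolase ENO2, as higher (all genes 4.27% and 6.78%). The 5 were LDHA, ENO1, PGK1, SLC16A3 and ALDOA, and ALDOA shares most of its sequence words with another gene. LDHA, the lactate dehydrogenase that regenerates NAD+ (chromosome 11, 18394388 to 18408425), was at 813 and 1875 CPM in tet-ZFP36L1 and at 2543 and 1945 CPM in tet-control. The lines were level at 6 h, and the difference was -1.59 (-1.63 to -1.56). ENO1, the main enolase, was at 1483 and 2551 CPM in tet-ZFP36L1 and at 3016 and 2671.5 CPM in tet-control, a difference of -0.96 (-0.98 to -0.93). SLC16A3, the lactate exporter MCT4, was at 139 and 211 CPM in tet-ZFP36L1 and at 277 and 226 CPM in tet-control, a difference of -0.89 (-0.98 to -0.80). PKM, the last enzyme of the pathway, was at 2550.2 and 3221 CPM in tet-ZFP36L1 and at 2501 and 2209 CPM in tet-control and was not counted. Removing the expression trend left 2 of the 5. Hypoxia-inducible genes outside glycolysis showed no common direction, with 2 of 28 measured members higher and 3 lower (all genes 6.78% and 4.27%).

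Cholesterol synthesis genes differed mainly because they were higher at 24 h in tet-control. Of 24 measured members 3 were lower in tet-ZFP36L1 and 0 were higher, while 7 were higher in tet-control with the lines exchanged. The shares of all genes were 4.27% lower and 6.78% higher in tet-ZFP36L1, and 1.51% higher in tet-control. The median change was -0.37 in tet-ZFP36L1 and 0.53 in tet-control. In tet-ZFP36L1 it was -0.17 with plain CPM, -0.16 with TPM and -0.11 with the expression trend removed. HMGCS1, which makes the substrate of HMG-CoA reductase, was at 104 and 148 CPM in tet-ZFP36L1 and at 294 and 192 CPM in tet-control, a difference of -1.12 (-1.22 to -1.02). FDFT1, squalene synthase, was at 119 and 154 CPM in tet-ZFP36L1 and at 260.0 and 145 CPM in tet-control, a difference of -1.21 (-1.31 to -1.11). NSDHL, the sterol dehydrogenase, was the lower member without much shared sequence, at 60.2 and 94.0 CPM in tet-ZFP36L1 and at 91.0 and 64.2 CPM in tet-control. The other 2, FDPS and CYP51A1, share most of their sequence words with another gene. In fatty acid synthesis 1 of 20 measured members was lower, near the 4.27% of all genes. SCD, the stearoyl desaturase, was level in tet-ZFP36L1 at 347 and 369 CPM and stood at 809 and 456 CPM in tet-control.

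Mitochondrially encoded mRNAs went the other way, again through tet-control. None of the 13 was counted as higher in tet-ZFP36L1 (all genes 6.78%), but 10 were lower in tet-control with the lines exchanged (all genes 3.62%). The median change was -0.24 in tet-ZFP36L1 (0.06 with the expression trend removed) and -1.04 in tet-control. MT-CYB, of respiratory complex III, was at 1159 and 1173 CPM in tet-ZFP36L1 and at 596 and 1449 CPM in tet-control, a difference of 1.26 (1.22 to 1.30). Only tet-control at 24 h stood apart. The mitochondrial share of all counts was 2.36% and 2.45% in tet-ZFP36L1 and 1.41% and 2.92% in tet-control. Nuclear respiratory chain genes had 5 of 73 measured members lower, near the 4.27% of all genes, and 0 higher (all genes 6.78%). Small differences from tet-control were nonetheless negative in 71 of the 73 (all genes 51.75%). Their median was -0.39, with changes of -0.10 in tet-ZFP36L1 and 0.26 in tet-control. With plain CPM, TPM and the expression trend removed, 82.19% to 83.56% of members were negative (all genes 39.07% to 46.85%). NDUFA6, of complex I, was at 37.7 and 61.5 CPM in tet-ZFP36L1 and at 80.2 and 59.9 CPM in tet-control, a difference of -1.12 (-1.28 to -0.95).

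Genes of amino acid supply and the integrated stress response had negative medians in both lines. The median change was -0.57 in tet-ZFP36L1 and -0.47 in tet-control, and 4 of 40 measured members were lower beyond tet-control (all genes 4.27%). The median difference was -0.16 with TMM, -0.02 with plain CPM, 0.04 with TPM and -0.04 with the expression trend removed. SLC7A5, the large neutral amino acid transporter, was at 62.0 and 288 CPM in tet-ZFP36L1 and at 305 and 677 CPM in tet-control, a difference of -1.06 (-1.15 to -0.96). PSAT1, of serine synthesis, was at 58.4 and 188 CPM in tet-ZFP36L1 and at 141 and 215 CPM in tet-control, a difference of -1.08 (-1.19 to -0.96). Among the 38 measured endoplasmic reticulum chaperones and stress genes 8 were lower and 0 higher (all genes 4.27% and 6.78%). Their median difference depended on scaling: -0.30 with TMM, -0.16 with plain CPM, -0.18 with TPM and -0.16 with the expression trend removed. HSP90B1, the chaperone GRP94, was at 475 and 984 CPM in tet-ZFP36L1 and at 1112 and 1130.1 CPM in tet-control, a difference of -1.03 (-1.07 to -0.98). HSPA5, the chaperone BiP, was at 384 and 845 CPM in tet-ZFP36L1 and at 903 and 1219 CPM in tet-control, a difference of -0.71 (-0.75 to -0.66).

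The rebound of genes that were low early was read from the difference between the lines at each time. At 6 h, 728 genes were at least 2-fold below tet-control. This choice used the 6 h libraries only, so the 24 h libraries can be read as a separate measure, but the genes' own change from 6 h shares the library that chose them. At 24 h 454 of the 728 were still at least 2-fold below tet-control (62.4%), where 986 of all measured genes were (8.27%). A further 131 were between 2-fold and 1.5-fold below it, 130 were within 1.5-fold and 13 were at least 1.5-fold above it. The median difference between the lines was -1.18 at 24 h and -1.28 at 6 h. The share still low depended on scaling. It was 51.7% of 658 early low genes with plain CPM, 46.9% of 657 with TPM and 61.6% of 695 with the expression trend removed. With the lines exchanged, which was computed with TMM only, 605 genes were low in tet-control at 6 h. At 24 h 475 of them were still low (78.5%). A share of 19.6% was thus within 1.5-fold of tet-control or above it in tet-ZFP36L1 at 24 h, against 11.9% with the lines exchanged. The exchanged set lay deeper, with a median of tet-control minus tet-ZFP36L1 of -1.50 at 6 h and -1.78 at 24 h. The shares therefore start from unlike depths, and the part of depth in their gap was not tested. Just inside the 2-fold threshold at 6 h lay SELENOI, PRELID3B and RIPOR1, at -1.14, -1.5 and -0.13 at 24 h. Just outside it lay PRKCA, DDA1 and GTF2I, at -0.61, -0.99 and -0.69 at 24 h.

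**Figure D5:**
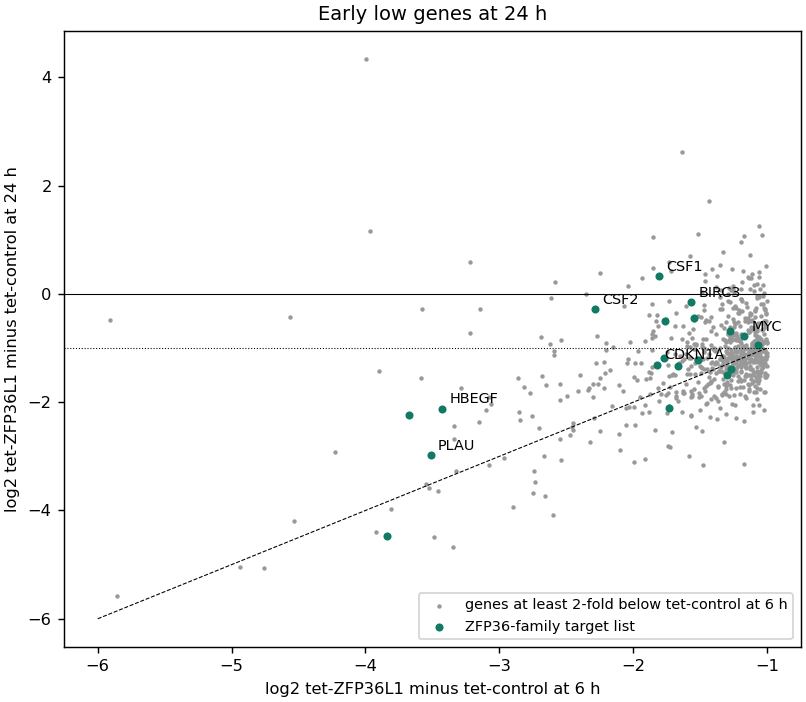
Log2 difference of tet-ZFP36L1 from tet-control at 24 h (vertical axis) against the same difference at 6 h (horizontal axis) for the 728 genes at least 2-fold below tet-control at 6 h, with ZFP36-family target mRNAs in green. The dashed line marks equal differences and the dotted line a 2-fold lower level at 24 h, below which 454 genes lie.

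The extremes at 24 h lay far apart. SYNM, an intermediate filament protein, was at 8.28 and 1.09 CPM in tet-ZFP36L1 and at 2.18 and 3.80 CPM in tet-control, and so passed from below tet-control to 1.71 above it. LZTS3, a gene of the leucine zipper suppressor family, was at 44.8 and 10.7 CPM in tet-ZFP36L1 and at 20.9 and 22.5 CPM in tet-control. At the other end, NPNT, the matrix protein nephronectin, was at 9.06 and 8.39 CPM in tet-ZFP36L1 and at 455 and 514 CPM in tet-control. PADI2, a peptidylarginine deiminase, was at 29 and 29.3 CPM in tet-ZFP36L1 and at 989 and 805 CPM in tet-control. Both were low at each time, and whether the lines differed in them before doxycycline was not analysed here.

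Of the 63 measured ZFP36-family target mRNAs, 19 were at least 2-fold below tet-control at 6 h and 11 of these still were at 24 h. Among all 11920 measured genes 728 were so at 6 h, and 62.4% of those still were at 24 h. Over all 63 the median difference between the lines was -0.38 at 24 h and -0.51 at 6 h. The 24 h value depended on scaling and was -0.19 with plain CPM, -0.21 with TPM and -0.27 with the expression trend removed, while the 6 h value lay between -0.44 and -0.50 under the other scalings. By the double rule 5 were at least 1.5-fold higher at 24 h and 2 lower, which is near the shares of all measured genes, 6.78% and 4.27%. With the lines exchanged, 12 were lower in tet-control, where the share of all genes was 3.62%. The AU-rich heptamer TATTTAT stands in the 3' UTR of most of the members described next. A site of 30 bases is shown for 5 of them, with the heptamers in capitals, read from the GENCODE 29 transcript of the gene with the highest level (GRCh38). The first 3 mRNAs were higher at 24 h, and the last 2 were still far below tet-control.
CSF1 (chr1:109929054-109929083, plus strand): ccatgctgccacTATTTATtgtgagccctg
CSF2 (chr5:132076074-132076103, plus strand): ttaaaaTATTTATTTATTTATTTATttaag
TNF (chr6:31578001-31578030, plus strand): TATTTATTATTTATTTATTATTTATTTATt
PLAU (chr10:73917417-73917446, plus strand): aaTATTTATatttcactattttTATTTATa
HBEGF (chr5:140333678-140333707, minus strand): tcttaaattataTATTTATtttattctatg

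Of the colony-stimulating factors, CSF1 and CSF2 stood near the tet-control level at 24 h. CSF1, the macrophage growth factor (chromosome 1, 109910242 to 109930992), was at 51.8 CPM in tet-ZFP36L1 at 24 h and 13.9 CPM in tet-ZFP36L1 at 6 h, against 41.2 CPM in tet-control at 24 h and 49.7 CPM in tet-control at 6 h. Only tet-ZFP36L1 at 6 h was low, and the difference was 2.13 (1.90 to 2.37). CSF2, the factor GM-CSF, was at 9.65 and 1.81 CPM in tet-ZFP36L1 and at 11.8 and 10.7 CPM in tet-control, a difference of 2.00 (1.42 to 2.59). TNF, chosen after its values were seen, was at 26.4 and 12.9 CPM in tet-ZFP36L1 and at 16 and 17.3 CPM in tet-control, so that it was lower than tet-control at 6 h and higher at 24 h. BIRC3, an inhibitor of apoptosis, came level in another way. It was at 162 and 134 CPM in tet-ZFP36L1 and at 180.0 and 398 CPM in tet-control, and the difference of 1.41 (1.32 to 1.51) came mostly from tet-control.

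Other targets were still below tet-control at 24 h, and whether the lines differed in them before doxycycline was not analysed here. PLAU, the urokinase plasminogen activator, was at 53.9 and 36.0 CPM in tet-ZFP36L1 and at 430.2 and 416 CPM in tet-control, and thus -2.98 and -3.51 from tet-control at 24 h and 6 h. HBEGF, an EGF receptor ligand, was at 15.6 and 20.7 CPM in tet-ZFP36L1 and at 69.7 and 228 CPM in tet-control. PLAU, HBEGF and CDKN1A were chosen for description as known targets after their values were seen. CDKN1A, the inhibitor p21, was at 22.8 and 20.6 CPM in tet-ZFP36L1 and at 57.3 and 74.1 CPM in tet-control.

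NF-kB dependent cytokines and chemokines partly overlap with these targets. Of 19 measured members, 6 were at least 1.5-fold higher and 0 lower (all genes 6.78% and 4.27%), and 7 were lower in tet-control with the lines exchanged (all genes 3.62%). The median change was 0.12 in tet-ZFP36L1, 0.29 with plain CPM and 0.21 with TPM, and -0.54 in tet-control. Of the members, 7 were at least 2-fold below tet-control at 6 h, as were 728 of all 11920 measured genes. At 24 h 2 of the 7 still were, the chemokine CCL20 and the collagenase MMP1, against 62.4% of the 728. IL32, an inducible cytokine with no TATTTAT in its 3' UTR, was at 32.3 and 8.96 CPM in tet-ZFP36L1 and at 23.1 and 33.7 CPM in tet-control, a difference of 2.33 (2.03 to 2.63). ICAM1, the leukocyte adhesion receptor, was at 183 and 127 CPM in tet-ZFP36L1 and at 156 and 289 CPM in tet-control. In the NF-kB subunit and feedback list 3 of 25 members were higher (all genes 6.78%), and RELB, the partner of p52, was at 27.9 and 10.4 CPM in tet-ZFP36L1 and at 8.11 and 8.61 CPM in tet-control, a difference of 1.47 (1.08 to 1.86). TRAF1, a TNF receptor adaptor, was nearly level in tet-ZFP36L1 at 71.6 and 64.3 CPM and stood at 34.1 and 234 CPM in tet-control.

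Protein-coding genes whose 3' UTR reaches 50 bases were classed by copies of TATTTAT: 1141 had 2 or more copies, 1910 had 1 copy and 7938 had none. Their median distance from tet-control was -0.28 at 24 h and -0.28 at 6 h with 2 or more copies, -0.16 and -0.15 with 1 copy, and -0.01 and 0.05 with none. The median difference of the changes from 6 h to 24 h was 0.03, 0.00 and -0.05 in the same order of classes. Of the early low genes of each class, 71.0%, 60.5% and 63.0% were still low at 24 h. Genes with more copies have longer 3' UTRs, with medians of 3110, 1666.5 and 596 bases, and the part of length was not tested.

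Beyond the lists, ZNF512B, a zinc finger gene, had the largest positive difference among the protein-coding genes named by rule. It stood at 27.9 and 1.09 CPM in tet-ZFP36L1 and at 39.2 and 95.1 CPM in tet-control, a difference of 5.43 (4.80 to 6.06), and tet-ZFP36L1 at 6 h was the low library. COL11A2, a fibrillar collagen chain, was at 11.2 and 0.88 CPM in tet-ZFP36L1 and at 0.25 and 0.27 CPM in tet-control. C1R, the complement protease, was at 16 and 4.19 CPM in tet-ZFP36L1 and at 0.71 and 1.5 CPM in tet-control, a difference of 2.54 (1.56 to 3.51). MITF, a transcription factor, was at 2.75 and 0.62 CPM in tet-ZFP36L1 and at 3.45 and 12.9 CPM in tet-control. Of the 12 most positive differences, those of FAM117B and ALS2CL came mostly from tet-control at 24 h: ALS2CL was at 40.7 and 17.6 CPM in tet-ZFP36L1 and at 4.26 and 25 CPM in tet-control.

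Among the lower genes, extracellular matrix genes stood out in level. The rule counted 8 of 35 measured members as lower and 1 as higher, the basement membrane proteoglycan HSPG2, where the shares of all genes were 4.27% and 6.78%. FN1, fibronectin (chromosome 2, 215360440 to 215436172), was at 2657 and 11877 CPM in tet-ZFP36L1 and at 393 and 716 CPM in tet-control, a difference of -1.29 (-1.34 to -1.25). TNC, tenascin C, was at 61.1 and 400.0 CPM in tet-ZFP36L1 and at 6.44 and 10.3 CPM in tet-control, a difference of -2.06 (-2.39 to -1.73). Both were above tet-control at both times and came closer to it at 24 h. The metalloprotease ADAM19 was at 5.17 and 59.3 CPM in tet-ZFP36L1 and at 16.6 and 6.10 CPM in tet-control, a difference of -4.77 (-5.18 to -4.36). EXOC8, an exocyst subunit, had 3 counts in tet-ZFP36L1 at 24 h and 440 in tet-ZFP36L1 at 6 h, a ratio of 0.006 (0.001 to 0.018), against 343 and 410 counts in tet-control. TEAD1, the transcription factor of the Hippo pathway, was at 12.4 and 29.2 CPM in tet-ZFP36L1 and at 43.8 and 13.5 CPM in tet-control, and NRP2, a semaphorin receptor, was at 4.26 and 13.6 CPM in tet-ZFP36L1 and at 41.7 and 31.2 CPM in tet-control.

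Of 31 measured housekeeping genes 10 were lower and 1 was higher (all genes 4.27% and 6.78%). ACTB, cytoplasmic actin, was at 3362 and 9177 CPM in tet-ZFP36L1 and at 5879 and 7555 CPM in tet-control, a difference of -1.09 (-1.10 to -1.07). EEF2, the translation elongation factor, was at 2668 and 2190.1 CPM in tet-ZFP36L1 and at 2594 and 2659 CPM in tet-control. Ribosomal protein genes had 1 of 78 measured members lower and 0 higher (all genes 4.27% and 6.78%), and the sign of their median difference, -0.06, turned to 0.08 with plain CPM, to 0.09 with TPM and to 0.28 with the expression trend removed. Of the mRNA decay machinery 1 of 48 measured members was higher (all genes 6.78%), BTG2, an antiproliferative factor that promotes deadenylation, at 5.54 and 2.49 CPM in tet-ZFP36L1 and at 3.04 and 2.62 CPM in tet-control.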

How the data were processed

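Total RNA of 6 J82 cultures (2 lines at 0, 6 and 24 h, 1 library each) was sequenced on a BGISEQ-500, per the labels' protocols, and the 4 libraries with doxycycline were used. Per the submitters' processing notes, kallisto and DESeq2 were used with build hg19; no versions are named. Each deposited table has 196354 transcripts, and its estimated counts, as deposited, can be fractional. The TPM values were scaled by the authors for effective length and depth, per the file headers. The sources used here do not state the strand setting.

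Transcripts were matched by identifier to GENCODE 29 (GRCh38, another build than the submitters'), 181857 of them, and no coordinate was converted. Unmatched transcripts, with 5.12% to 5.46% of the counts, were left out. Counts were summed per gene, rounded and scaled by TMM (edgeR 4.0.16, R 4.3.3), with Python 3.11.15, numpy 2.4.6 and pandas 2.3.3 for the rest. No count test was run, since no group has a replicate and no library shows the spread within a group. Intervals for differences come from the delta method and for ratios from the exact binomial distribution. The counting rule was tested on simulated counts with counting error only, without variation between cultures or a trend with expression. That test cannot show how often the rule errs in these data.

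The comparison, the 24 gene lists and the 4 marker lists were chosen with earlier results of these data known. Genes named by rule are the 3 family members, the 12 largest differences each way among counted protein-coding genes with at least 50 counts in the higher tet-ZFP36L1 library and no library at 0, the 4 members of each list with the highest counts and the 4 with the largest differences, and 8 early low genes each way. The text describes some of them. Of 1873 genes checked for 31-base words shared with another gene, 231 shared at least 50%, and those were not named by rule. Alternatives tried were plain CPM, size factors from DESeq2 1.42.0, deposited TPM, removal of the expression trend by lowess, other count minimums and pseudocounts, the change in tet-ZFP36L1 alone, protein-coding genes only and a 1.5-fold threshold. Results for some list members are not reported here.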

Additional observations from a re-analysis of the deposited data

Results flagged for a closer look

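In 4 gene lists the median change from 6 h to 24 h had opposite signs in the lines and their medians of the difference were at least 1.5-fold. With 1 library per group these differences between the lines were not tested. Mitosis genes had a median difference of -0.931 between the change in tet-ZFP36L1 and that in tet-control, with medians of -0.71 in tet-ZFP36L1 and 0.21 in tet-control. Cholesterol synthesis genes had a median difference of -0.832, with -0.37 in tet-ZFP36L1 and 0.53 in tet-control. For NF-kB dependent cytokines and chemokines the median difference was 0.726, with 0.12 in tet-ZFP36L1 and -0.54 in tet-control. Housekeeping genes had a median difference of -0.599, with -0.36 in tet-ZFP36L1 and 0.10 in tet-control. That median was -0.46 with plain CPM, -0.36 with TPM and -0.30 with the expression trend removed, all smaller than 1.5-fold, while the other 3 lists stayed past 1.5-fold under each scaling.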

How the results depend on the processing

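No paired analysis was possible because each group is 1 library, and for the same reason no library could be left out. The counts of interferon-stimulated (28 to 42), NF-kB cytokine (4 to 9), ZFP36-family target (4 to 7) and mitochondrially encoded (0) members that were higher stayed within 1.5 times of 33, 6, 5 and 0 members under each alternative.

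Genes higher at 24 h (257) numbered 389 with plain CPM, 471, 99 and 548 with minimum mean counts of 10, 200 and 1, 170 and 85 with pseudocounts of 2 and 5 CPM, 534 from tet-ZFP36L1 alone and 808 at 1.5-fold. Genes lower (73) numbered 41 with plain CPM, 122, 48 and 152 with those minimums, 43 with a pseudocount of 5 CPM, 184 from tet-ZFP36L1 alone and 509 at 1.5-fold. Lower mitosis members (58) numbered 26 with plain CPM, 36 with TPM and 28 with the expression trend removed. The shares of all genes that were lower were 1.96%, 2.74% and 3.57% in these settings, against 4.27% in the main one. Lower cholesterol synthesis members (3) numbered 1, 1 and 0 in the same order, and lower glycolysis members (5) numbered 2 with the trend removed. Early low genes still low at 24 h (454 of 728, 62.4%) numbered 257 of 405 with a pseudocount of 5 CPM (63.5%) and 1245 of 1828 at 1.5-fold (68.1%). Their share was 51.7% with plain CPM and 46.9% with TPM. The median of the mitochondrially encoded mRNAs, 0.89, reversed to -0.236 from tet-ZFP36L1 alone, where by construction the change in tet-control, -1.04, is not subtracted. A stricter minimum, a lower minimum or another threshold changes which genes can be counted by construction; for the other settings the cause was not tested. Of the named genes' differences, 1886 alternatives lay within counting error of the reported value, 524 outside it and 0 of the counted ones reversed.

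Gene counts per library lay between 19605308 and 20192782. Intervals cover counting error only, and the spread between cultures could not be measured.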

Other observations

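Some genes changed in both lines between 6 h and 24 h. By the change within each line alone, 534 of the 11920 measured genes were at least 2-fold higher in tet-ZFP36L1 and 121 in tet-control. At least 2-fold lower were 184 and 252. Of these, 42 genes were higher in both lines and 36 were lower in both. GLIPR1, a secreted-protein family member, was among the lower ones, at 90.0 and 375 CPM in tet-ZFP36L1 and at 21.4 and 159.5 CPM in tet-control at 24 h and 6 h. ANGPTL4, an inhibitor of lipoprotein lipase that hypoxia induces, was at 7.96 and 42.1 CPM in tet-ZFP36L1 and at 34.6 and 91.4 CPM in tet-control, and its change in tet-ZFP36L1 was larger, with a difference of -0.94 (-1.21 to -0.67).

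Of 27 measured immediate early genes, 3 were at least 1.5-fold higher in tet-ZFP36L1 beyond tet-control and 0 were lower, where the shares of all measured genes were 6.78% and 4.27%. JUNB, a subunit of the AP-1 transcription factor, was at 60.6 and 38.2 CPM in tet-ZFP36L1 and at 34.6 and 45.1 CPM in tet-control, a difference of 1.04 (0.84 to 1.23). Its relative JUND was at 61.8 and 33.3 CPM in tet-ZFP36L1 and at 65.2 and 61.1 CPM in tet-control, so that only tet-ZFP36L1 at 6 h was low. The third was BTG2. Both GLIPR1 and the AP-1 genes were chosen after their values were seen.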
